A study of Mus musculus with 9 samples.

Results

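Transcripts of 4 retinoid receptor genes, Rara, Rarg, Rxra and Rxrb, and of the corepressor gene Nrip1 were followed in F9 cells given retinoic acid (RA) or trichostatin A (TSA). They were found by gene symbol in the array platform's annotation, which gave 6 of 12422 probe sets, or 5 of 8251 named genes. Rxra had 2 probe sets and each other gene had 1. F9 is an established line of mouse embryonal carcinoma cells that differentiates when given RA. The 9 arrays hold 3 groups of 3, taken after 24 h: ethanol vehicle, RA at 0.5 µM and TSA at 0.07 µM. All groups are 1 cell line at 1 time, and the labels name no solvent for TSA, so the ethanol arrays served as its controls too. Nothing in the labels says that replicates were separate cultures, so the p-values measure only how far these arrays differ, and that spread may be technical.

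RA acts through heterodimers of a retinoic acid receptor (RAR, such as Rara and Rarg) and a retinoid X receptor (RXR, such as Rxra and Rxrb), which sit on paired copies of a short DNA hexamer. Without ligand, the RAR holds corepressor complexes that carry histone deacetylases, the enzymes that TSA inhibits, and ligand exchanges them for coactivators. Nrip1, also called RIP140, is unusual among corepressors in that it binds receptors that carry their ligand, and it brings deacetylases and C-terminal binding proteins to them. It has been described as a gene that RA itself induces in several cell types.

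The deposited values are ratios of each probe set to its own mean over the vehicle arrays. They show change within a probe set and hold no level, so the abundance of the 5 genes cannot be ordered and their presence in F9 cells cannot be checked. The same limit applies to the embryonal carcinoma markers that would test the cell label. Changes are on the scale log2(ratio + 0.05), which understates changes of low values. The RA label was checked with Cyp26a1, the enzyme that degrades RA, whose ratio was 51.8 to 78.8 on the RA arrays, 0.571 to 1.48 on the vehicle arrays and 1.42 to 4.99 on the TSA arrays. Crabp2, which carries RA in the cell, was at 32.4 to 61.2 on the RA arrays and 0.857 to 1.22 on the vehicle arrays, but also at 13.3 to 28.9 on the TSA arrays. Array medians ran from 0.822 to 1.01, and over all probe sets the median log2 change from vehicle was -0.12 with RA and -0.17 with TSA. Once arrays were centred, it became 0.035 and 0.029. The 18S ribosomal RNA control signal was highest on vehicle replicate 3 (2.40 times the vehicle mean) and RA replicate 3 (0.961), with the other 7 arrays at 0.538 or less.

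Nrip1 was the member whose RNA changed, and the starts of its gene are shown for that reason. RefSeq's promoter table of the GRCm38.p6 build held 12 windows for the 5 genes, each of 250 bases before and 50 bases after a transcription start. The windows for Nrip1 were chr16:76373778-76374077 and chr16:76373000-76373299, both read on the minus strand. Capitals mark 4 forms of the hexamer that retinoid receptors bind, and a GC box, on either strand. AGGTCA was searched for first, with the related form AGTTCA. After the sequences had been seen, the search was widened to GGGTCA and, in the same step, the similar form GGTTCA. The GC box was GGGCGG.

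Nrip1 start 1: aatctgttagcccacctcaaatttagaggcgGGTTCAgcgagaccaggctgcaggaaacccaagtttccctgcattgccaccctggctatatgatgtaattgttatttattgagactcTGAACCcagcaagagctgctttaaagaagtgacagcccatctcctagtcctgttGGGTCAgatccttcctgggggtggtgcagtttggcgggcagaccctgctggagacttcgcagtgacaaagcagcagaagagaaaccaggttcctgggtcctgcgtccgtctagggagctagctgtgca

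Nrip1 start 2: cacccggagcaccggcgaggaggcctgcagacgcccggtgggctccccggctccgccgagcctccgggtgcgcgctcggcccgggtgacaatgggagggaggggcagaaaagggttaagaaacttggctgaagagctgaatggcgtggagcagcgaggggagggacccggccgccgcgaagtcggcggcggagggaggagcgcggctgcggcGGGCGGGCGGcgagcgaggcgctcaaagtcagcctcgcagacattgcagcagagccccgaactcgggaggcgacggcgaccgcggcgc

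The window of start 1 held GGTTCA at bases -219 to -214, its reverse complement at -132 to -127 and GGGTCA at -78 to -73, counted from the start with no base 0. It held neither AGGTCA nor the related form AGTTCA, and no GC box. The window of start 2 lay in a stretch of 73.3% G and C, against 52.7% at start 1. It held 2 overlapping copies of GGGCGG, at bases -38 to -33 and -34 to -29, and none of the 4 hexamers. Of all 32851 promoter windows, 10.4% held GGTTCA, 13.7% GGGTCA, 16.3% AGGTCA, 14.0% AGTTCA and 35.7% GGGCGG.

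Among the receptor genes, AGGTCA occurred once in a window of Rara, once in a window of Rarg and in 2 copies in a window of Rxra, the copies lying on opposite strands. The widened forms were not particular to Nrip1: a window of Rara held the same number of each as Nrip1 start 1, 1 copy of GGGTCA and 2 of the similar form GGTTCA, besides 1 of AGTTCA. A window of Rxra also held 1 copy of GGGTCA. None of the 12 windows held a direct repeat of AGGTCA or of AGTTCA with 5 bases between the copies (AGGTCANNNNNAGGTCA, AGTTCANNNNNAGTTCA) or with 1 (AGGTCANAGGTCA, AGTTCANAGTTCA), on either strand. Such repeats were present in 3, 8, 13 and 4 of the 32851 windows. In their richest windows Rara, Rxra and Rxrb each had 4 copies of GGGCGG, and Rarg had 3. A match is a run of letters in a window and was not tested as a binding site.

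Nrip1 rose in RA. Its ratio was 1.19, 0.894 and 0.919 on vehicle replicates 1, 2 and 3, and 5.40, 3.10 and 2.80 on RA replicates 1, 2 and 3. Each RA array lay above each vehicle array, and RA replicate 1 was the highest of the 9. The mean in RA was 3.77 ± 1.42 (SD, n = 3) times the vehicle mean. The log2 change was 1.81 ± 0.28 (SE), or 3.51-fold with a 95% interval of 2.24 to 5.50, and passed limma's test with Benjamini-Hochberg adjustment over all 12422 probe sets (adjusted p = 0.0213). It ranked 113 of 12422 by the size of its rise. Against these numbers, 1.36% of all probe sets passed in RA against vehicle, 0.934% as higher, and 17% had arrays that did not overlap, 5.93% with RA wholly above vehicle.

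The rise of Nrip1 was positive in all 20 alternatives, from 1.52 to 1.99 on the log2 scale, and passed in 14. Settings that altered only the spread estimate, other probe sets or the TSA arrays could not move the change from 1.81. Left out singly, 4 arrays ended the call by limma's test, with adjusted p = 0.0954 without vehicle replicate 2, 0.05004 without vehicle replicate 3, 0.0598 without RA replicate 1 and 0.0735 without RA replicate 2. The change was 1.94 without both arrays highest in 18S signal (adjusted p = 0.0753), and 1.81 in a fit on the 6 arrays alone (adjusted p = 0.0819). An exact permutation test of the 6 arrays gave its smallest possible two-sided p, 0.1.

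**Figure D1:**
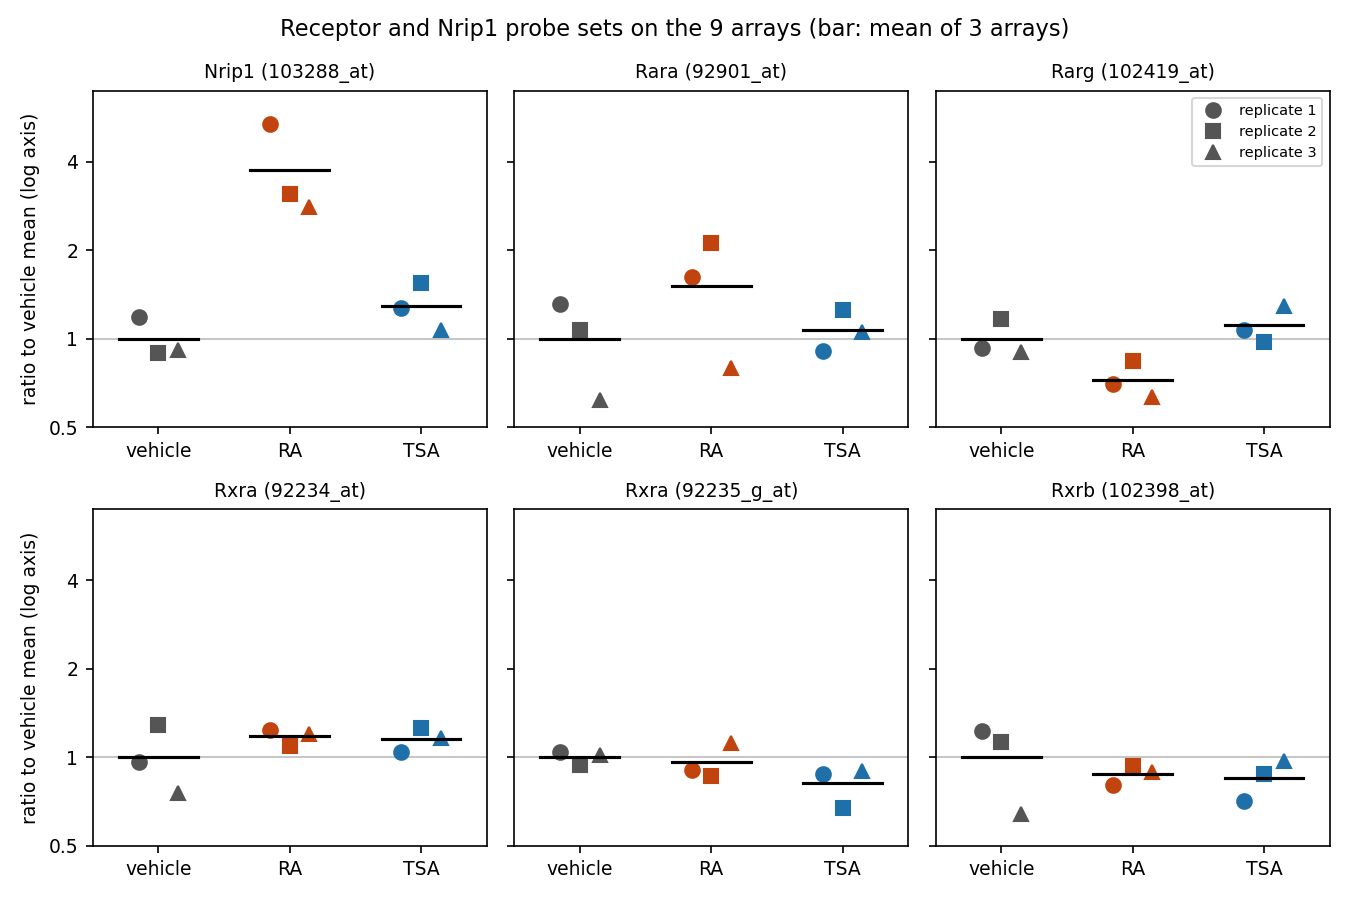
Ratio to the vehicle mean (log axis) of the 6 probe sets on each array, with marker shape for replicate number, colour for group and a bar for the mean of 3 arrays. The RA arrays of Nrip1 sit between 2.80 and 5.40, above its vehicle arrays, while most receptor values lie near 1.

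In TSA, the change of Nrip1 was smaller than the test could call. Its ratio was 1.27, 1.55 and 1.07 on TSA replicates 1, 2 and 3, with a mean of 1.297 ± 0.236 (SD, n = 3), and TSA replicates 1 and 2 lay above the highest vehicle array while replicate 3 overlapped the vehicle arrays. The log2 change was 0.36 with a 95% interval of -0.29 to 1.00, and did not pass (limma, Benjamini-Hochberg adjusted p = 0.540). No alternative brought it past the threshold, and its adjusted p ran from 0.0515 to 0.834. In TSA against vehicle, 3.48% of all probe sets passed, 2.21% as higher, and 26.3% had arrays that did not overlap, 9.26% with TSA higher.

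Nrip1 also differed between the compounds. The lowest RA array, at 2.80, was above the highest TSA array, at 1.55. RA exceeded TSA by 1.46 ± 0.28 (SE) on the log2 scale, or 2.74-fold with a 95% interval of 1.75 to 4.30, and limma's test with Benjamini-Hochberg adjustment gave an adjusted p of 0.0273. In this comparison 3.91% of all probe sets passed, 1.7% as higher in RA and 2.21% as lower, and 27.3% did not overlap, 13.8% with RA wholly above TSA. The difference kept its sign in all 20 alternatives and passed in 12. Settings that altered only the spread estimate, other probe sets or the vehicle arrays could not move the difference from 1.46. Single arrays left out ended the call by limma's test in 6 of 9 cases: the adjusted p was 0.0675 without RA replicate 1, 0.0706 without RA replicate 2, 0.0911, 0.0723 and 0.103 when TSA replicate 1, 2 or 3 was dropped, and 0.0505 without vehicle replicate 2. Quantile normalisation gave a difference of 1.29 (limma, adjusted p = 0.0824), and the fit on the 6 arrays alone an adjusted p of 0.0553.

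**Figure D2:**
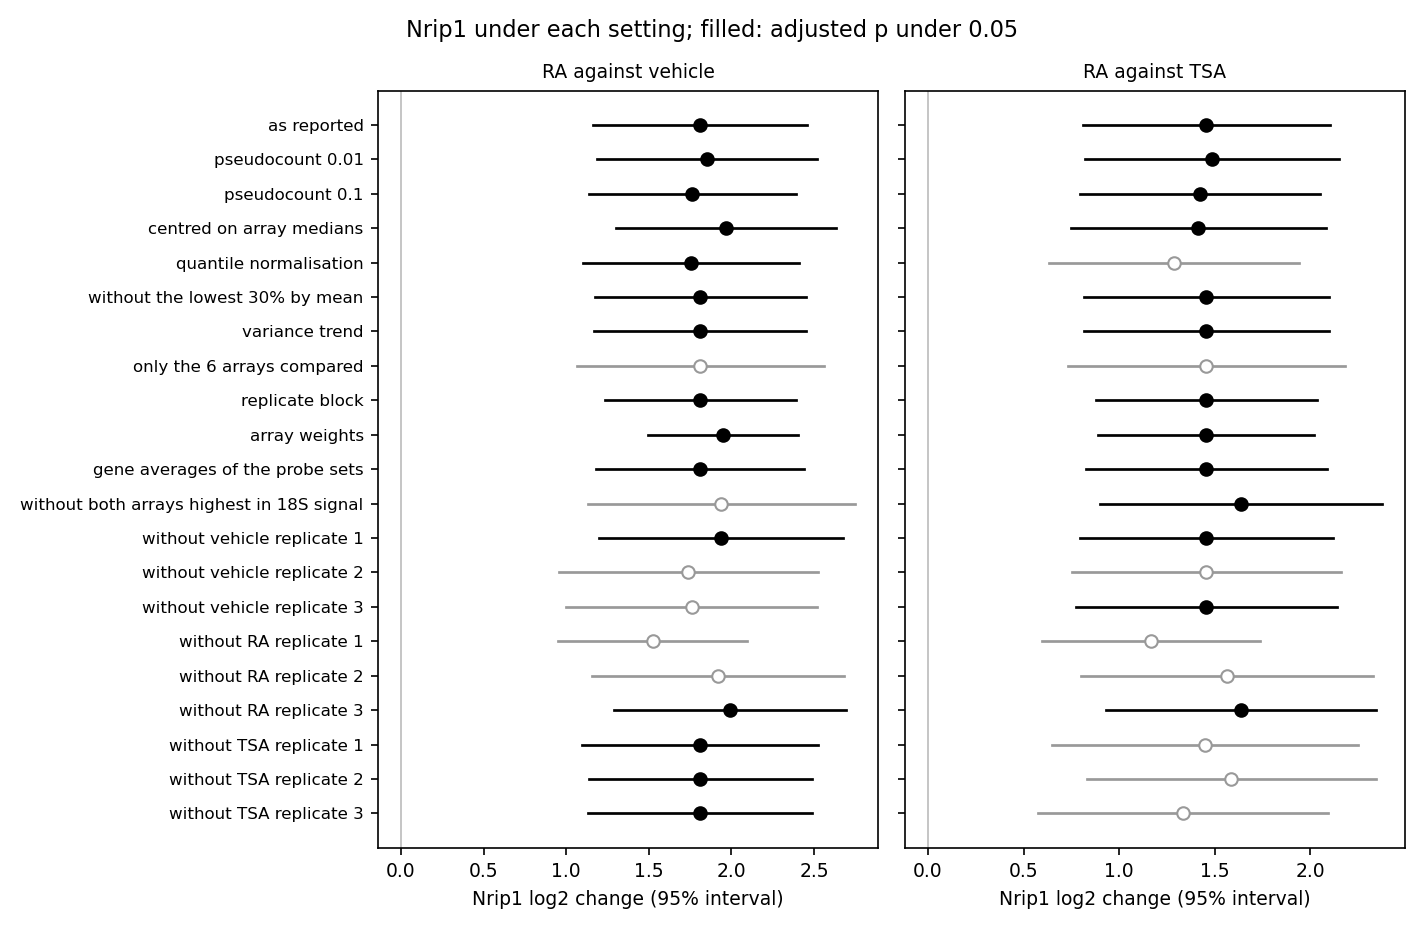
Log2 change of Nrip1 with its 95% interval under each setting, for RA against vehicle (left) and RA against TSA (right); filled points have an adjusted p under 0.05. Each interval lies above 0, and the call itself holds in 14 of 20 alternatives on the left and 12 of 20 on the right.

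Rara encodes the RAR found in most tissues. Its ratio was 1.31, 1.07 and 0.621 on vehicle replicates 1, 2 and 3, and 1.63, 2.12 and 0.797 on RA replicates 1, 2 and 3. RA replicates 1 and 2 were above each vehicle array, but RA replicate 3 fell within the vehicle range, so the groups overlapped. The mean in RA was 1.51 ± 0.67 (SD, n = 3), and this was the widest spread of any receptor probe set in any group, 2.65-fold from lowest to highest array. The log2 change of 0.53 had a 95% interval of -0.36 to 1.42 and did not pass (limma, Benjamini-Hochberg adjusted p = 0.638).

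In both groups the lowest Rara value was on the array with the highest 18S signal. Without both arrays, and so without the lowest value of either group, Rara was 1.63 and 2.12 in RA against 1.31 and 1.07 in vehicle. The log2 change was then 0.63 (95% interval 0.024 to 1.23; limma, adjusted p = 0.2997). It was 0.92 without RA replicate 3 alone and 0.24 without vehicle replicate 3 alone, and passed in none of 20 alternatives. The part of the 18S signal in this spread was not tested further. On the TSA arrays Rara was 0.912, 1.25 and 1.05, within the vehicle range, with a log2 change of 0.15 (95% interval -0.74 to 1.03; limma, adjusted p = 0.874).

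Rarg encodes the RAR that gene disruption studies have tied to much of the response of F9 cells to RA. Its ratio was 0.933, 1.17 and 0.900 on vehicle replicates 1, 2 and 3, and 0.702, 0.840 and 0.635 on RA replicates 1, 2 and 3. Each RA array lay below each vehicle array, as in 11% of all probe sets. The log2 change was -0.44 with a 95% interval of -0.90 to 0.027 and did not pass (limma, Benjamini-Hochberg adjusted p = 0.425). With the arrays centred on their medians it was -0.28.

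On the TSA arrays Rarg was 1.07, 0.977 and 1.29, overlapping the vehicle arrays, with a log2 change of 0.15 (95% interval -0.32 to 0.61; limma, adjusted p = 0.741). The RA arrays also lay wholly below the TSA arrays, as in 13.5% of all probe sets, with a log2 difference of -0.58 (95% interval -1.05 to -0.12). This interval does not include 0, with an unadjusted p of 0.0195 by limma, yet the adjusted p was 0.184. Over the alternatives the difference ran from -0.69 to -0.48, with adjusted p from 0.127 to 0.424 by limma. Of the 6 probe sets, Rarg alone had RA arrays that lay wholly below both other groups.

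Rxra encodes an RXR, the partner that RARs need to bind DNA. Both of its probe sets were designed from the same deposited sequence. On the probe set with the suffix _at the ratio was 0.965, 1.28 and 0.753 in vehicle, 1.24, 1.10 and 1.20 in RA, and 1.04, 1.26 and 1.17 in TSA. The vehicle arrays had the widest range, and each RA and TSA value lay within it, between 0.753 and 1.28. The log2 change was 0.26 in RA (95% interval -0.25 to 0.76; limma, adjusted p = 0.697) and 0.23 in TSA (95% interval -0.28 to 0.73; limma, adjusted p = 0.624).

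On the other Rxra probe set, with the suffix _g_at, the ratio was 1.04, 0.944 and 1.02 in vehicle, 0.902, 0.864 and 1.12 in RA, and 0.877, 0.674 and 0.900 in TSA. The TSA arrays lay wholly below the vehicle arrays, as in 17.1% of all probe sets. The log2 change was -0.29 in TSA (95% interval -0.73 to 0.15; limma, adjusted p = 0.465) and -0.063 in RA (95% interval -0.50 to 0.38; limma, adjusted p = 0.938). The probe sets of Rxra thus gave opposite signs against vehicle in both treatments, none past the test, and no direction is given for the gene. RA and TSA differed by 0.031 on the _at probe set and 0.22 on the _g_at probe set.

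Rxrb encodes another RXR. Its ratio was 1.23, 1.13 and 0.642 on vehicle replicates 1, 2 and 3, 0.805, 0.936 and 0.891 on the RA arrays, and 0.709, 0.878 and 0.969 on the TSA arrays. All 6 treated values lay between vehicle replicate 3 and the other vehicle arrays. The log2 change was -0.13 in RA (95% interval -0.73 to 0.47; limma, adjusted p = 0.894) and -0.18 in TSA (95% interval -0.78 to 0.42; limma, adjusted p = 0.750). Vehicle replicate 3 was the lowest vehicle array for 4 of the 6 probe sets (Rara, Rarg, the _at probe set of Rxra, and Rxrb), against 42.3% of all probe sets.

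**Figure D3:**
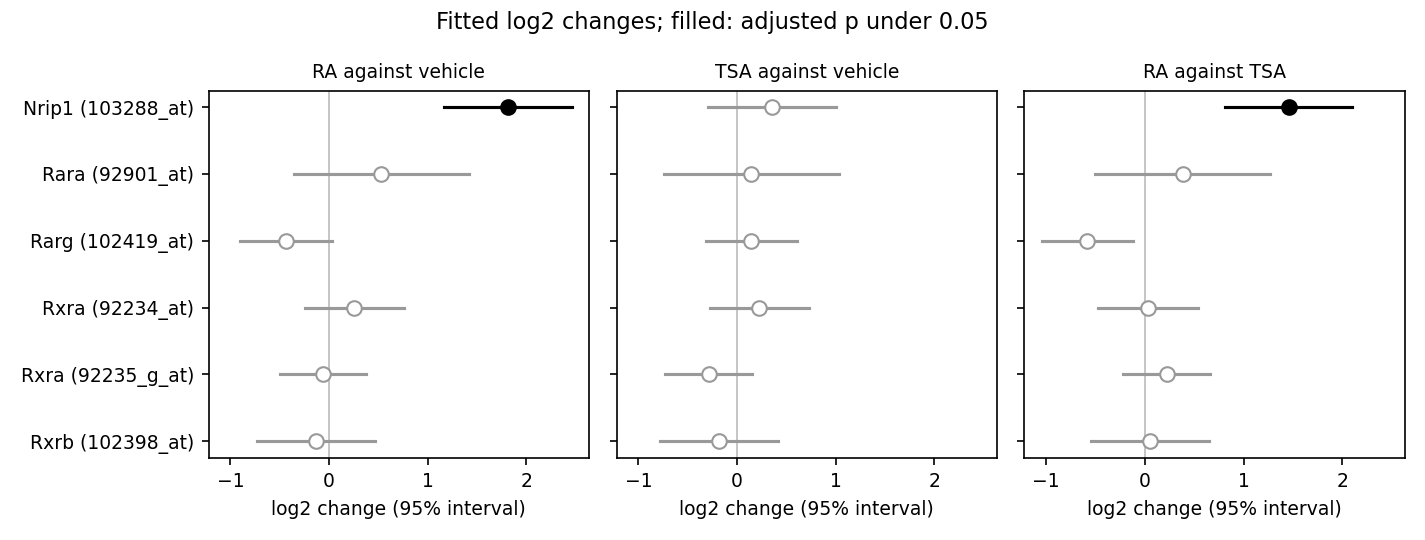
Fitted log2 change and 95% interval of the 6 probe sets in each comparison; filled points passed at an adjusted p under 0.05. Nrip1 passed in RA against vehicle (1.81) and RA against TSA (1.46), and no receptor probe set passed in any comparison.

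Thus 1 of the 6 probe sets passed in RA against vehicle, none in TSA against vehicle and 1 in RA against TSA. For TSA, by limma without adjustment, none of the 6 had a p under 0.05 either, against 2437 of all 12422 probe sets. The same count was 1 in RA against vehicle (1574 of all probe sets) and 2 in RA against TSA (2118 of all probe sets). The intervals leave room for moderate changes: they reach 2.67-fold higher for Rara in RA and 0.536 times the vehicle level for Rarg in RA. The median log2 change of the 6 was 0.097 in RA and 0.15 in TSA, against -0.12 and -0.17 over all probe sets. RA and TSA were set against the same vehicle arrays, so the values of both comparisons share their controls.

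By mean absolute difference in log2(ratio + 0.05) over the 9 arrays, the 3 named probe sets most like Nrip1, of 10832, were those of Reep1, Pptc7 and Efnb1, at 0.236, 0.242 and 0.263. They were picked for likeness to Nrip1 on these same arrays. Their rise in RA therefore follows from the choice, and their p-values are given as description only. Reep1, which shapes the endoplasmic reticulum, was 2.93, 2.99 and 2.20 on the RA arrays and 1.05 to 1.40 on the TSA arrays, and rose in RA by 1.38 (limma, Benjamini-Hochberg adjusted p = 0.0188). Efnb1, an ephrin ligand, was 3.03, 2.39 and 3.21 on the RA arrays and rose by 1.48 (limma, adjusted p = 0.0111). Pptc7, a mitochondrial phosphatase, was 4.28, 2.61 and 2.55 on the RA arrays and 1.14 to 2.46 on the TSA arrays; its change of 1.60 did not pass in RA (limma, adjusted p = 0.0753). Like Nrip1, Pptc7 had RA replicate 1 as its highest array.

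Other genes of the receptor system were counted from 4 lists. Among Rxrg and the receptors that pair with RXRs (13 genes, 18 probe sets), none passed in RA or TSA against vehicle; the extremes in RA were Rxrg at -1.77 (limma, adjusted p = 0.342) and Pparg at 0.86 (adjusted p = 0.616). Nr4a1, an orphan receptor that can pair with RXRs, was lower in RA than in TSA by a log2 difference of -1.73 (limma, adjusted p = 0.0461), a call that held in 2 of 9 fits without 1 array. The list's median log2 change was -0.18 in RA and -0.25 in TSA.

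Of 20 other nuclear receptor genes (33 probe sets), 3 probe sets fell in RA and 3 in TSA, and none rose. In RA these were 1 probe set each of Nr5a1 (-1.36), Nr5a2 (-1.25) and Nr0b1 (-1.22), with adjusted p = 0.0238, 0.0311 and 0.0421 by limma. Nr5a1 encodes steroidogenic factor, and Nr5a2 and Nr0b1 are known as regulators of the undifferentiated state. Without 1 array, the call of Nr5a1 held in 4 of 9 fits and those of Nr5a2 and Nr0b1 in none. Other probe sets of these genes did not pass in RA: they were at -1.15, -0.59, -0.20 and 0.058 for Nr5a1, -0.82 for Nr5a2 and 0.19 for Nr0b1, so the probe sets of Nr5a1 and of Nr0b1 differ in sign and no direction is given for these genes in RA. In TSA the falls were 3 of the 5 probe sets of Nr5a1 (-2.33, -1.73 and -1.15), of which the first and the second held in all 9 such fits and the third in 2; the others were at -0.71 and 0.62. Nr2f1, a COUP-TF orphan receptor known to respond to RA, had the largest positive value of the list in RA, 2.53, and did not pass (limma, adjusted p = 0.119). The list's median was -0.26 in RA and -0.33 in TSA.

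Of 14 corepressor and deacetylase complex genes (17 probe sets), 1 probe set fell in RA and none changed in TSA. It was Ctbp2, which encodes a C-terminal binding protein, the kind of protein that Nrip1 binds. Ctbp2 was 1.14, 0.998 and 0.867 on the vehicle arrays, 0.304, 0.315 and 0.228 on the RA arrays and 1.16, 1.02 and 0.895 on the TSA arrays, so that the RA arrays stood wholly below the rest. The log2 change in RA was -1.66 ± 0.20 (SE; limma, Benjamini-Hochberg adjusted p = 0.00746), and the call held in all 9 fits without 1 array. The other probe set of Ctbp2 changed by -1.68 (limma, adjusted p = 0.0738). The list's median was -0.36 in RA and -0.051 in TSA.

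Of 13 coactivator genes (17 probe sets), none changed in RA. In TSA 1 probe set each of Kat2b (-1.74), Prmt1 (-1.22) and Carm1 (-1.21) fell, with adjusted p = 0.0157, 0.0493 and 0.0299 by limma. The other probe set of Kat2b was at -1.62 in TSA and did not pass (limma, adjusted p = 0.0562). Kat2b encodes an acetyltransferase, and Prmt1 and Carm1 encode arginine methyltransferases. When single arrays were dropped, these calls held in 6, 2 and 3 of 9 cases. The list's median was -0.13 in RA and -0.18 in TSA, next to -0.12 and -0.17 over all probe sets. As background, 0.427% of all probe sets passed as lower in RA and 1.27% in TSA. In RA against TSA, 2.21% passed as lower in RA and 1.7% as higher.

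**Figure D4:**
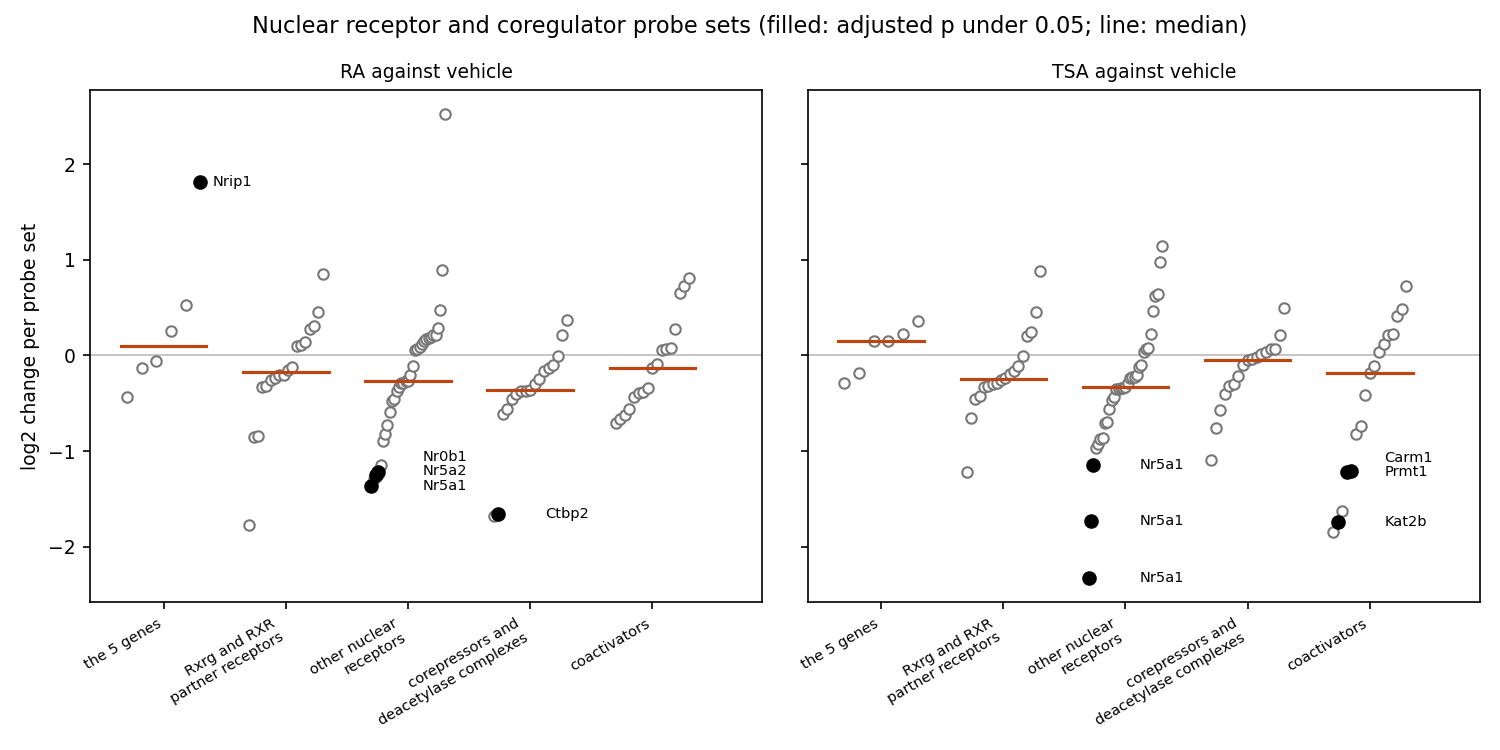
Log2 change of each probe set in RA (left) and TSA (right) against vehicle, for the 5 genes and 4 lists of the receptor system, with the median of each as a line; filled, named points have an adjusted p under 0.05. Nrip1 is the only filled point above 0 in RA, at 1.81, and Ctbp2 lies at -1.66.

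Marker lists of other cell states are given beside Nrip1. Of 16 probe sets of 10 endoderm markers, 3 rose in RA and none fell, against 0.934% of all probe sets as higher, and 1 rose in TSA, against 2.21%. The median log2 change of the list was 0.31 in RA and -0.33 in TSA. Its mean log2 value was 0.816 to 0.987 on the RA arrays, -0.153 to 0.186 on the vehicle arrays and -0.348 to -0.0859 on the TSA arrays, and the 2 largest changes in RA were those of Foxa1 (4.70) and of 1 of 3 Gata6 probe sets (3.75). Probe sets of Dab2 and Lamb1 were at -0.49 to -0.21 in RA, apart from 1 of Dab2 at 0.84, and did not pass. Of 10 probe sets of 8 embryonal carcinoma markers, 3 fell in RA, 2 fell in TSA and none rose, against 0.427% and 1.27% of all probe sets as lower. The median of the list was -0.84 in RA and -0.86 in TSA, with means of -1.08 to -1.0 on the RA arrays, -0.116 to 0.155 in vehicle and -0.838 to -0.616 in TSA. Of 15 probe sets of 10 fibroblast or feeder markers, none changed in RA and 3 rose in TSA, with a median of 0.0092 in RA and 0.095 in TSA. The list means were -0.291 to -0.100 in RA, -0.503 to 0.496 in vehicle and 0.282 to 0.616 in TSA, and the 2 largest changes in TSA were those of Thy1 (3.00) and of 1 of 2 Col1a1 probe sets (4.31). Probe sets of Col3a1 were at -1.37, -0.68 and 1.13 in TSA, and those of Tagln, Fn1 and Acta2 at -0.19 to -0.15. The other Col1a1 probe set was at 0.59 in TSA and Vim at 0.12, and none of these passed. The part of these cell states in the rise of Nrip1 was not tested, and in bulk RNA a change in the number of cells of a type and a change in RNA per cell cannot be told apart. No marker can be called absent, since the ratios hold no level.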

How the data were processed

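RNA of 9 samples was hybridised to Affymetrix arrays at a core facility and analysed in GeneSpring, per the labels' protocols. The deposited table holds the authors' linear ratios: in each of 12488 rows the vehicle arrays average 1. How scanner signal became ratio is not given in the sources used here. After leaving out 66 control probe sets, 12422 were tested. Names came from the platform annotation, updated through Entrez IDs with RefSeq's GRCm38.p6 table: 10833 probe sets had 1 symbol, 396 several and 1193 none, and only the first were named. No member symbol occurred among probe sets with several.

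Ratios were used as deposited, as log2(ratio + 0.05), in 1 limma fit (version 3.58.1, R 4.3.3) of all 9 arrays with 6 residual degrees of freedom, no filter and no variance trend. Changed means a Benjamini-Hochberg adjusted p under 0.05 over all probe sets. The procedure was tested only on simulated data with independent normal errors, equal spread in the groups and no shift common to an array. In the arrays themselves the median SD on the log2 scale was 0.41 in vehicle, 0.31 in RA and 0.26 in TSA. The number of arrays limits the precision. Members, lists, the fit and the alternatives were chosen with earlier results of these data known. Named were all members, up to 8 listed probe sets past the threshold per list, and the 3 nearest probe sets of a changed member; Nr2f1, Rxrg, Pparg, the single markers and the listed genes' other probe sets were named after their values were seen. Rarb was not analysed here.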

Additional observations from a re-analysis of the deposited data

How the results depend on the processing

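Of 354 alternative values of the 6 probe sets, 322 kept their direction and side of the threshold. Some alternatives leave the log2 change as it was, so its direction could not turn there. The number of changed probe sets, 1 in RA against vehicle and 1 in RA against TSA, was 0 to 1 when single arrays were left out, and in TSA it was 0 in each such fit. It was 0 in both from the 6 arrays compared, 0 in RA against vehicle without both arrays highest in 18S signal and 0 in RA against TSA after quantile normalisation. The changes were due to Nrip1.

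Array weights, whose estimation did not converge and which put a weight of 21.4 on vehicle replicate 2, gave 2 in RA (Nrip1 and Rarg, at -0.60) and 1 in TSA (Rxrb, at -0.45). Of all 12422 probe sets, this setting called 2196 in RA and 4494 in TSA, against 169 and 432 in the fit as reported. The calls of Rarg and Rxrb are therefore not read as results about these genes. With array weights the sign turned for the _at probe set of Rxra in RA (-0.12) and TSA (-0.17), and in TSA for Rara (-0.050) and Rarg (-0.084). None of the values that changed sign passed the test, with array weights or in another setting. Centring turned the _g_at probe set of Rxra (0.094) and Rxrb (0.025) in RA, Rxrb in TSA (0.019) and the _at probe set of Rxra in RA against TSA (-0.011). Quantile normalisation turned the _g_at probe set of Rxra in RA (0.11). Without both arrays highest in 18S signal Rara in TSA was -0.15. With single arrays left out, the values that changed sign ran in RA from -0.41 to 0.037 for Rxrb and from -0.17 to 0.0058 for the _g_at probe set of Rxra, in TSA from -0.15 to 0.36 for Rara, and in RA against TSA from -0.039 to 0.093 for the _at probe set of Rxra and from -0.071 to 0.14 for Rxrb.

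The labels do not say that a replicate number links arrays, and correlations of deviations ran from -0.032 to 0.289 for arrays with the same number, against -0.3003 to 0.171 for different numbers. Since not every same-numbered pair was above 0.1, the arrays were not treated as paired. Yet the pairs numbered 3, at 0.190 to 0.289, were each above every pair with different numbers. So was the pair of vehicle and RA arrays numbered 1, at 0.2485. With the replicate number as a block (replicate block), 1, 0 and 1 of the 6 probe sets passed in RA, TSA and RA against TSA, and Nrip1 had an adjusted p of 0.0290 and 0.0320 by limma. Over all probe sets the block gave 141 calls in RA and 438 in TSA.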
